A study of Mus musculus with 6 samples.

Results

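The respiratory chain genes described here are the protein subunits of complexes I to V that could be found by symbol in a gene-level read count table: names beginning Nduf followed by a subunit letter and number, Sdha to Sdhd, Uqcr, Cox4 to Cox8 and Atp5 for the nuclear genome, and mt-Nd, mt-Co, mt-Cytb and mt-Atp for the mitochondrial genome. They number 97 of the 31205 genes in the table, 84 of them nuclear and 13 mitochondrially encoded. A symbol rule of this kind misses subunits with other names, such as Ndufab1 and Cyc1, and 2 pseudogene symbols were left out. The libraries were made from PD-L1 knockout DC2.4 cells (3 libraries) and from control DC2.4 cells (3 libraries). DC2.4 is a dendritic cell line of mouse origin, and PD-L1, the product of Cd274, is the checkpoint ligand bound by PD-1 on T cells. The labels name no drug treatment, no number of knockout clones and no separate cultures, so p-values here reflect only how far these libraries differ from each other, a spread that may be technical. RNA of both groups was extracted as total RNA, and how ribosomal RNA was removed is not given in the sources used here.

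The respiratory chain sits in the inner mitochondrial membrane. Complexes I (NADH dehydrogenase) and II (succinate dehydrogenase) pass electrons to ubiquinone, complex III (cytochrome bc1) passes them on to cytochrome c, and complex IV (cytochrome c oxidase) passes them to oxygen, while complex V (ATP synthase) uses the resulting proton gradient to make ATP. All complexes but II combine subunits of both genomes, so their assembly draws on nuclear transcription, import into the mitochondrion and expression of the mitochondrial genome. In dendritic cells, oxidative phosphorylation is known to be used at rest, with a shift towards glycolysis after activation.

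Library totals lay between 13501776 and 21133688 counts in knockout and between 10918498 and 23250065 in control. Knockout library 1 stood apart from the other knockout libraries on the second principal component, which held 15.8% of the variance. Control library 2 held 3656 counts of 8 stromal marker genes, against at most 9 in any other library, and lymphocyte and epithelial markers did not pass 6 summed counts in any library. Among endothelial markers, Vwf had 289 to 490 counts in knockout and 343 to 654 in control, while Pecam1, Cdh5 and Kdr stayed at 10 or fewer. Of the dendritic and myeloid markers, Ptprc, Itgam, Itgax, Irf8, Spi1, Csf1r and Cd74 were present, whereas Flt3, Batf3 and H2-Aa were at or near 0. Cd274 itself had 102, 81 and 163 counts in knockout and 52, 99 and 171 in control, so its transcript level did not check the knockout label.

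Many nuclear respiratory chain transcripts were higher in the knockout libraries, with median log2 fold changes between 0.40 and 0.67 in complexes I to V, whereas few mitochondrially encoded transcripts passed the test. Of the 84 nuclear genes, 78 passed the filter on low counts, and 45 of them (57.7%) were higher and 0 lower at an adjusted p under 0.05 (edgeR quasi-likelihood test with Benjamini-Hochberg adjustment over all 11453 genes tested). Over all genes tested, 25.3% were called, 11.8% higher and 13.5% lower. At an unadjusted p under 0.05 the counts were 60 higher and 1 lower, and DESeq2 and limma-voom gave 53 and 43 higher and 0 lower. The nuclear members had a median log2 fold change (knockout minus control) of 0.60, with a range of -0.27 to 1.32 and 76 of 78 above 0, against a median of 0.01 over all genes. In 52 of the 78 every knockout library lay above every control library, which was so for 21.1% of all genes, and in 2 (Atp5a1 and Uqcrc2) every knockout library lay below every control library, against 21.8% of all genes. Of the 13 mitochondrially encoded genes, mt-Co2 and mt-Nd6 were higher and 0 were lower, with a median of 0.39 (5 higher and 0 lower at an unadjusted p under 0.05, and 3 and 0 by DESeq2). In bulk samples, fewer cells of a type and less RNA per cell cannot be told apart.

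The number of nuclear members called depended on single libraries, while their median moved less. Without control library 2, the one with the stromal transcripts, 6 were called higher with a median of 0.56, and without knockout library 2, 10 were called with a median of 0.45. Leaving out control library 3 left 24, knockout library 3 left 28, control library 1 left 35 and knockout library 1 left 62. The share of all genes called higher moved the same way, to 1.43% without control library 2, 3.40% without knockout library 2, 5.74% without control library 3, 4.60% without knockout library 3, 10.01% without control library 1 and 19.97% without knockout library 1. Among the named nuclear members, 6 were called higher under all 18 alternatives run, namely Cox7a2l, Uqcrq, Ndufs8, Ndufa9, Ndufa7 and Ndufb7.

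Transcript length moved with the change and bears on every count given here. Across all 11396 tested genes with a known length, shorter transcripts had larger log2 fold changes (Spearman's rho -0.49 across genes, which are not independent replicates), and the nuclear members are short, with a median transcript of 787 bases against 2881 for all genes. The authors' counts were therefore also fitted with an offset for every library and gene, taken from that library's trend with transcript length and GC content. In that fit 11 nuclear members were higher (14.1%, against 9.49% of all genes) and 1 was lower (8.13% of all genes), and their median was 0.27, against 0.06 for all genes. The 11 were Ndufa7, Ndufa9, Ndufb3, Ndufb7, Ndufs4, Ndufs8 and Ndufv2 of complex I, Sdhc of complex II, Uqcrq of complex III, Cox7a2l of complex IV and Atp5g1 of complex V, and the gene that was lower was Uqcrc2. When a gene's median coding transcript length was used in place of its principal transcript, an alternative chosen after seeing the data, 23 nuclear members were higher (11.9% of all genes), with a median of 0.39. The first 11 without Sdhc, 10 genes, were higher under both lengths. The 13 mitochondrially encoded genes had a median of 0.34 after the offsets, above the nuclear 0.27. Of these 13, 1 was higher in that fit (7.69%, against 9.49% of all genes). With the median coding length their median was 0.38, beside the nuclear 0.39. Whether the genomes differ in their change was not tested.

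**Figure D1:**
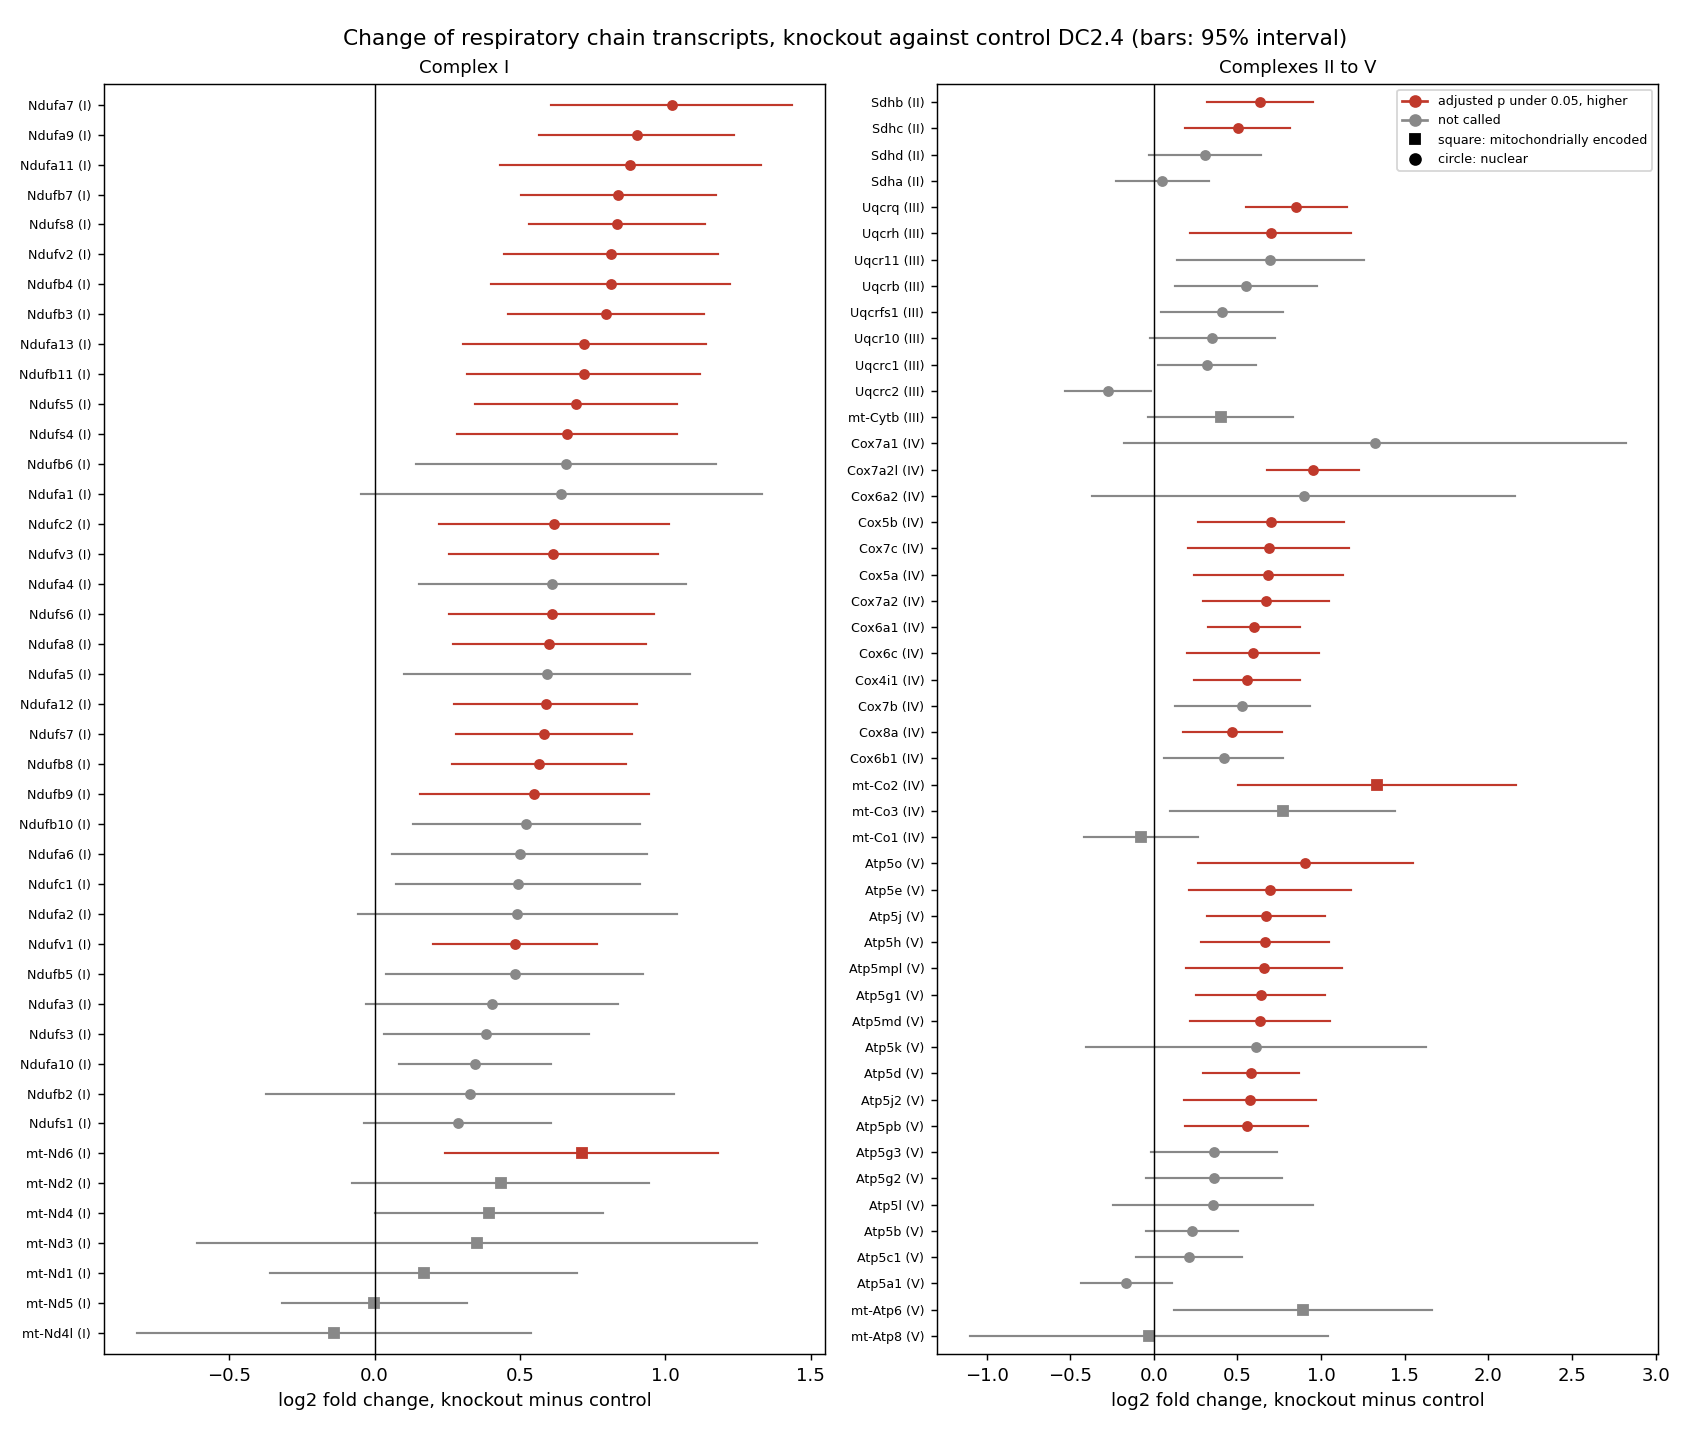
Log2 fold changes (horizontal axis, knockout minus control) of tested respiratory chain genes, grouped by complex, with 95% intervals; circles are nuclear and squares mitochondrially encoded, and red marks genes called higher. Most nuclear genes lie between 0.3 and 1, Uqcrc2 and Atp5a1 lie below 0, and the mitochondrially encoded genes spread from -0.14 to 1.33.

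Length classes separated the members from other genes of the same class least among short transcripts. Among nuclear members with a transcript under 600 bases, 11 of 21 were higher with a median log2 fold change of 0.61, against 55 of 241 and a median of 0.50 for all genes of that class. For transcripts of 600 to under 1200 bases the counts were 23 of 35 with a median of 0.61, against 365 of 1058 and 0.43 for all genes. The gap was wider among transcripts of 1200 bases or more. There 11 of 22 members were higher with a median of 0.49, against 930 of 10097 and -0.03 for all genes. Lengths were not matched within that open class, with a median of 1679 bases for the members and 3157 for all genes. After the length and GC offsets the medians of the members in the 3 classes were 0.30, 0.27 and 0.30, against 0.16, 0.12 and 0.05 for all genes. The trend was not equal among libraries. The shortest members deviated from their own mean log2 level by a median of 0.23, 0.63 and -0.02 in knockout libraries 1, 2 and 3, and by -0.15, -0.33 and -0.40 in control libraries 1, 2 and 3. RNA quality was not measured in these files, and the part of transcript length in the results was not tested beyond these offsets.

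**Figure D2:**
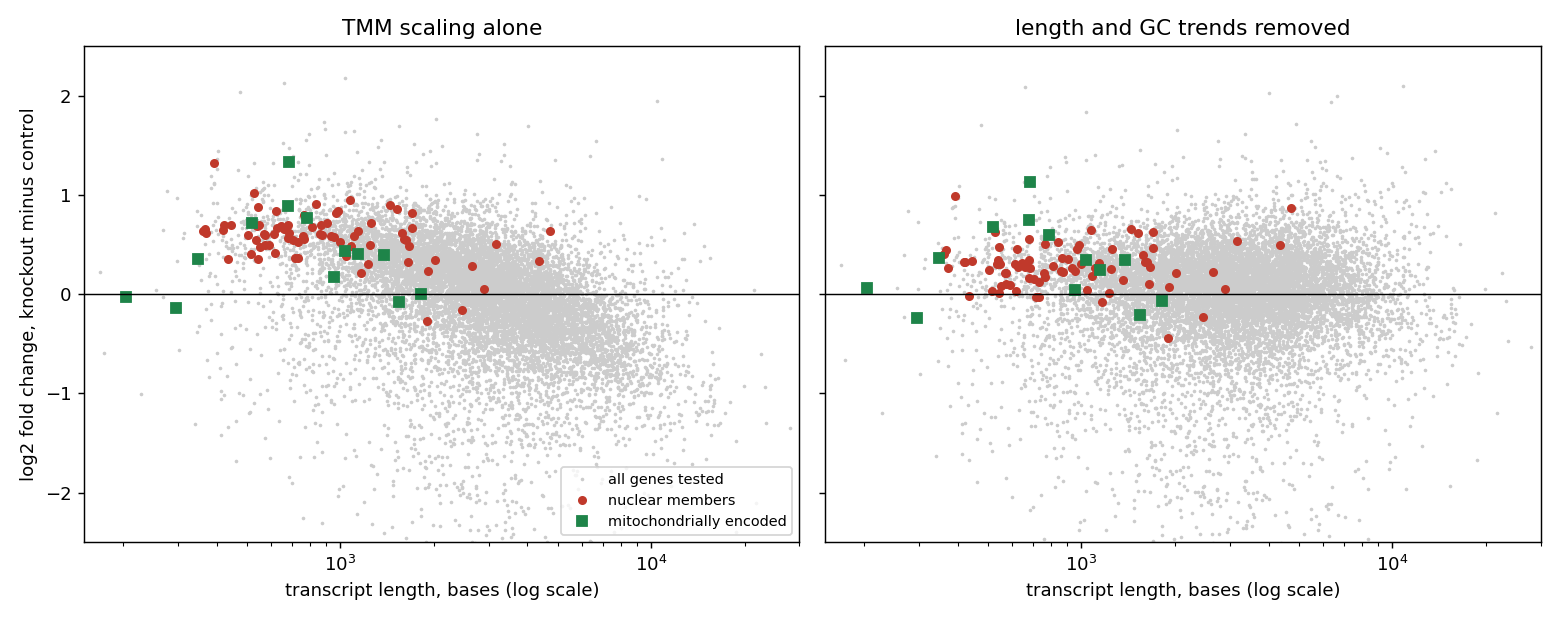
Log2 fold change (knockout minus control) against transcript length in bases on a log axis, before (left) and after (right) the length and GC offsets; grey points are all genes tested, red the nuclear members and green squares the mitochondrially encoded genes, and values beyond 2.5 are not drawn. Before the offsets short transcripts lie above 0 as a class (median 0.50 under 600 bases), and after them the class median is 0.16 and that of the nuclear members of that size 0.30.

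Position in the genome also moved with the change. Over the 599 tested genes of chromosome 17 the median log2 fold change was 0.38, and 36.9% were higher. It carries 6 tested nuclear members (Cox7a2l, Ndufa7, Ndufa11, Ndufb10, Ndufv2 and Ndufv3), of which 5 were higher, with a median of 0.85. Of the genes that stayed higher after the offsets, 3 (Cox7a2l, Ndufa7 and Ndufv2) are among them. The median of all tested chromosome 17 genes was still 0.38 after the offsets. On the other chromosomes, whose genes had a median of -0.01 and were higher in 10.5%, 40 of 72 nuclear members were higher, with a median of 0.59. After the offsets 8 of those 72 were higher, with a median of 0.27, beside a median of 0.04 for all genes of these chromosomes. With chromosome 17 included, 9.49% of all genes tested were then higher, with a median of 0.06. Chromosome 16 (median 0.24 over 364 genes, 25.0% higher) held 3 members, all higher, of which 0 were higher after the offsets. Chromosome 18 (median -0.24 over 263 genes, 1.14% higher) held 2, neither of them called.

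Complex I had the most members higher. Of its 36 tested nuclear genes, 22 were higher (61.1%, against 11.8% of all genes) and 0 lower (13.5% of all genes). Every log2 fold change lay between 0.29 and 1.02, and the median was 0.60. Calls fell among the 7 catalytic core subunits (5 of 7, median 0.54) and the 29 supernumerary subunits (17 of 29, median 0.61). After the length and GC offsets 7 of the 36 were higher (19.4%, against 9.49% of all genes). Without control library 2 there were 4, and without knockout library 2 there were 7.

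Among the core subunits, Ndufs8, which carries iron-sulfur clusters of the electron path, had 150, 177 and 156 CPM in knockout and 102, 85.3 and 83.8 CPM in control. CPM here are counts scaled to a common library total with TMM factors. The groups did not overlap, and the log2 fold change was 0.83 (SE 0.14, edgeR adjusted p = 0.00418; 0.49 after the offsets, adjusted p = 0.0135). Ndufv2, another iron-sulfur subunit of the NADH-oxidising arm (chromosome 17, 66078638 to 66101559, mm10), had 161, 246 and 188 CPM in knockout and 108, 111 and 120 in control. Its log2 fold change was 0.81 (SE 0.16, edgeR adjusted p = 0.00938; 0.62 after the offsets).

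Ndufv1, which binds NADH and the flavin, had 176, 197 and 208 CPM in knockout and 147, 130 and 138 in control (log2 fold change 0.48, SE 0.13, edgeR adjusted p = 0.022). The groups were apart, and the call was lost after the offsets (adjusted p = 0.0767). Ndufs1, the largest subunit of the complex, was not called: it had 255, 317 and 271 CPM in knockout and 200, 237 and 255 in control, a narrow gap between the groups and a log2 fold change of 0.29 with a 95% interval of -0.04 to 0.61.

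Ndufa7, a supernumerary subunit (chromosome 17, 33824572 to 33838317), had the largest change of the complex. It had 92.3, 110 and 72.7 CPM in knockout and 54.5, 39.3 and 41.7 in control (log2 fold change 1.02, SE 0.19, edgeR adjusted p = 0.00659). Ndufa9, which lies at the junction of the peripheral and membrane arms (chromosome 6, 126821721 to 126849136), had 182, 223 and 246 CPM in knockout and 113, 106 and 129 in control (0.90, SE 0.15, adjusted p = 0.00452). Neither gene's groups overlapped, and both remained higher after the offsets (0.63, adjusted p = 0.0209, for Ndufa7 and 0.66, adjusted p = 0.00805, for Ndufa9). The membrane arm subunits Ndufb7 (0.84, SE 0.15, adjusted p = 0.00618) and Ndufb3 (0.80, SE 0.15, adjusted p = 0.0076) also had non-overlapping groups and were called in both fits. Ndufa4, counted here under complex I by its symbol although its protein is known as a subunit of complex IV, had 170, 283 and 173 CPM in knockout and 150, 144 and 117 in control. Its libraries did not overlap, but it missed the threshold (0.61, edgeR adjusted p = 0.0539), which it passed in 4 alternatives: DESeq2 (adjusted p = 0.0219), the replicate block (0.0251), no filter on low counts (0.00819) and without knockout library 1 (0.00858). Ndufa4l2, its paralog known to be induced by hypoxia, had 3, 0 and 3 counts in knockout and 0 in every control library, and was not tested.

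Beside 11.8% of all genes, 2 of 4 genes of complex II were higher, with a median of 0.40. It is the one complex with no mitochondrially encoded subunit. Its flavoprotein Sdha, which oxidises succinate, had 420, 456 and 403 CPM in knockout and 389, 439 and 406 in control. Sdha thus overlapped between groups, with a log2 fold change of 0.05 and a 95% interval of -0.23 to 0.33. The iron-sulfur subunit Sdhb had 196, 228 and 177 CPM in knockout and 144, 127 and 117 in control (0.63, SE 0.14, edgeR adjusted p = 0.014).

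The membrane anchors Sdhc and Sdhd also differed in their calls. Sdhc (236, 266 and 283 CPM in knockout, 174, 169 and 212 in control) was higher by 0.50 (SE 0.14, adjusted p = 0.0287), and Sdhd (176, 249 and 225 CPM in knockout, 174, 164 and 187 in control) was not called (0.31, adjusted p = 0.155; 0.0191 without knockout library 1). After the offsets Sdhb was not called (0.31, adjusted p = 0.103) and Sdhc was (0.54, adjusted p = 0.0236), but with the median coding length Sdhb was called (0.45, adjusted p = 0.0383) and Sdhc was not (0.32, adjusted p = 0.0839). Without control library 2 or knockout library 2, 0 of the 4 were called, and without control library 1, control library 3 or knockout library 3, 1 was. Whether the 4 changes differ from each other was not tested.

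Of the 8 tested nuclear genes of complex III, 2 were higher (25.0%, against 11.8% of all genes), with a median of 0.48. Uqcrq, a small subunit near the ubiquinone site (chromosome 11, 53427922 to 53430831), had 192, 206 and 172 CPM in knockout and 116, 94.2 and 105 in control. The groups were well apart (log2 fold change 0.85, SE 0.14, edgeR adjusted p = 0.00374; 0.61 after the offsets, adjusted p = 0.00865). The hinge protein Uqcrh, which helps cytochrome c dock, had 88.6, 176 and 121 CPM in knockout and 82.1, 78.3 and 77.0 in control (0.70, adjusted p = 0.0404), a call lost after the offsets (0.31, adjusted p = 0.201).

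The Rieske iron-sulfur protein Uqcrfs1 (158, 226 and 209 CPM in knockout, 136, 140 and 171 in control) missed the threshold at 0.41 (adjusted p = 0.0888). The 2 core proteins, which are the scaffold on the matrix side, had changes of opposite sign without passing it. Uqcrc1 had 319, 379 and 391 CPM in knockout and 308, 280 and 285 in control (0.32, adjusted p = 0.0971). Uqcrc2, singled out after its values were seen, had 136, 141 and 136 CPM in knockout and 166, 174 and 159 in control (-0.27, SE 0.12, adjusted p = 0.104). It was the one nuclear member called lower after the offsets (-0.44, edgeR adjusted p = 0.0241) and with library totals as the only scaling (-0.43, adjusted p = 0.0231). It lies on chromosome 7, whose 853 tested genes had a median of -0.17. Without knockout library 1, 6 of the 8 genes were higher, and without any 1 control library or knockout library 2, 1 was.

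Complex IV had the highest nuclear median of the complexes, 0.67. Of its 13 tested nuclear members 9 were higher (69.2%, against 11.8% of all genes). Its members also had the shortest median transcript of the complexes, 645 bases. All 13 had a log2 fold change above 0, and in 10 every knockout library lay above every control library. That was so for 21.1% of all genes tested. By length it was 29.5% of those under 600 bases and 43.0% of those of 600 to under 1200. After the offsets 1 of the 13, Cox7a2l, was higher (7.69%, against 9.49% of all genes). The median was then 0.30, beside 0.29 for complex I and 0.27 for complex V. The count was 1 without control library 2, 2 without knockout library 2 and 3 without control library 3.

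Cox7a2l, known as a factor that joins complexes III and IV into supercomplexes (chromosome 17, 83501918 to 83517330), had well separated groups. It had 194, 192 and 188 CPM in knockout and 96.3, 92.2 and 108 in control, a spread of 3.31 CPM in knockout and 8.47 CPM in control (SD, n = 3 each). The log2 fold change was 0.95 (SE 0.12, edgeR adjusted p = 0.0013), and 0.65 after the offsets (adjusted p = 0.00581). No other member's adjusted p was as low.

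The 8 other called subunits of the complex had log2 fold changes between 0.47 and 0.70. Cox4i1, the regulatory subunit that binds ATP, had 374, 501 and 434 CPM in knockout and 303, 279 and 309 in control (0.56, SE 0.14, edgeR adjusted p = 0.0206). Cox5a had 157, 216 and 128 CPM in knockout and 120, 105 and 87.5 in control (0.68, adjusted p = 0.0331), and Cox5b 313, 352 and 233 against 228, 173 and 152 in control (0.70, adjusted p = 0.0281). None of the 3 had overlapping groups, and none was called after the offsets (0.17, 0.31 and 0.36).

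Several complex IV subunits exist as isoform pairs, one broadly expressed and one known from heart and skeletal muscle or another restricted tissue. Per kilobase of transcript, Cox6a1 averaged 401 CPM in knockout and 265 in control, against 10.01 and 5.26 for Cox6a2, and Cox7a2 averaged 205 in knockout and 129 in control, against 4.12 and 1.71 for Cox7a1. The broad form of each pair was the higher one in both groups. Cox6a1, the broad form, had 216, 246 and 226 CPM in knockout and 162, 149 and 143 in control (0.60, SE 0.12, edgeR adjusted p = 0.0101), while the muscle form Cox6a2 had 14.5, 3.29 and 2.64 CPM in knockout and 3.04, 3.50 and 4.20 in control. The high Cox6a2 value was that of knockout library 1, and the other 5 libraries overlapped (0.90, SE 0.57, adjusted p = 0.262). Cox7a2 had 116, 163 and 126 CPM in knockout and 95.9, 70.8 and 88.1 in control (0.67, adjusted p = 0.0201), against 2.87, 1.54 and 0.448 CPM of the muscle form Cox7a1 in knockout and 1.16, 0.415 and 0.440 in control (1.32, SE 0.67, adjusted p = 0.167). The largest fitted change among the nuclear members was thus that of a gene near the filter, and its groups overlapped. Cox8a had 226, 266 and 271 CPM in knockout and 195, 167 and 189 in control (0.47, adjusted p = 0.0294). Cox4i2, the isoform known from lung, had 0, 3 and 0 counts in knockout and 2, 7 and 6 in control, Cox8b had 1 count in all 6 libraries, and Cox6b2, Cox7b2 and Cox8c had 0.

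Calls in complex V were spread unevenly over its parts, whose transcripts also differed in length. All 17 nuclear members passed the filter, 10 were higher (58.8%, against 11.8% of all genes) and the median was 0.58. The fewest calls were in the catalytic head and the c ring. All 4 subunits of the peripheral stalk, which holds the head against rotation, were higher (median 0.67), as were 2 of 5 subunits of the F1 head (median 0.23), 1 of 3 genes for the rotating c ring (median 0.36) and 3 of 5 small membrane subunits (median 0.61). After the offsets Atp5g1 was the one member called (5.88%, against 9.49% of all genes). The medians were then 0.31 for the stalk, 0.27 for the small membrane subunits, 0.07 for the head and -0.03 for the c ring. Median transcript lengths were 823.5, 371, 1166 and 731 bases in that order. Without control library 2 or knockout library 2 the count for the complex was 0, without knockout library 3 it was 3, and without control library 1 or 3 it was 4. No test of the difference between these parts was run.

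In the head, Atp5a1, the alpha subunit (chromosome 18, 77773729 to 77782869), had 835, 866 and 907 CPM in knockout and 1028, 955 and 939 in control. Every knockout library lay below every control library, with a log2 fold change of -0.16 (95% interval -0.44 to 0.11, edgeR adjusted p = 0.337). Its catalytic partner Atp5b had 1185, 1293 and 1266 CPM in knockout and 1127, 1050.0 and 1020.1 in control, above every control library but not called (0.23, adjusted p = 0.191). Atp5c1, the gamma subunit that turns inside the head, overlapped between groups (0.21, adjusted p = 0.294). The delta subunit Atp5d of the central stalk had 275, 313 and 270 CPM in knockout and 209, 178 and 186 in control and was higher (0.58, SE 0.13, adjusted p = 0.0134).

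In the peripheral stalk, Atp5pb (subunit b) had 675, 1028 and 827 CPM in knockout and 540, 573 and 608 in control (0.56, edgeR adjusted p = 0.035). Atp5h (subunit d) had 170, 268 and 220 CPM in knockout and 131, 132 and 153 in control (0.66, adjusted p = 0.0214), and Atp5j (factor 6) 113, 156 and 119 against 91.5, 78.6 and 74.0 in control (0.67, adjusted p = 0.016). The libraries of these 3 genes did not overlap. Atp5o, which caps the stalk and was named after its values were seen, had 63.3, 106 and 154 CPM in knockout and 46.8, 52.9 and 72.8 in control, so knockout library 1 lay within the control range (0.91, SE 0.29, adjusted p = 0.0445). Atp5md, a small membrane subunit linked to the dimer of the enzyme, had 115, 190 and 129 CPM in knockout and 97.4, 84.0 and 98.1 in control (0.63, adjusted p = 0.0342).

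The mature c subunit of the ring is the same protein from 3 genes that differ in their import sequence. Atp5g1 had 203, 272 and 214 CPM in knockout and 181, 136 and 127 in control and was called (0.64, SE 0.17, edgeR adjusted p = 0.0256; 0.86 after the offsets, adjusted p = 0.0124). Its principal transcript in the annotation has 4715 bases and its median coding transcript 2675.5, and with the latter the change was 0.73 (adjusted p = 0.0179). Atp5g2 had 132, 141 and 95.1 CPM in knockout and 114, 91.6 and 81.5 in control (0.36, adjusted p = 0.166). Atp5g3 had 241, 365 and 279 CPM in knockout and 258, 217 and 215 in control (0.36, adjusted p = 0.137; 0.0222 without knockout library 1). Both overlapped between groups. Atp5g2 is also the one nuclear member with an annotated near-identical copy, Gm10175 on chromosome 7 (identical over 645 of 731 bases), which has no row in the count table.

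The 13 mitochondrially encoded transcripts fell into 2 levels that follow their place in the mitochondrial genome. Transcribed from both strands of the circular genome as long precursors that are cut at transfer RNAs, they encode the membrane core of complexes I, III, IV and V. Per kilobase of transcript, 7 of them (mt-Nd1, mt-Nd2, mt-Co1, mt-Nd4, mt-Nd5, mt-Nd6 and mt-Cytb) had 1285 to 7173 CPM in knockout and 1079 to 7566 CPM in control. The other 6 (mt-Co2, mt-Atp8, mt-Atp6, mt-Co3, mt-Nd3 and mt-Nd4l), which lie side by side between mt-Co1 and mt-Nd4, had 39.6 to 240 CPM per kilobase in knockout and 44.0 to 190 in control, near the nuclear members' median of 156 in knockout and 92.1 in control.

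The low stretch coincides with a nuclear copy of the mitochondrial genome annotated on chromosome 1 (mm10, 24611535 to 24616197, minus strand). In the GENCODE transcripts, mt-Co2, mt-Atp6, mt-Co3 and mt-Nd4l each had a copy there that was identical over 681 of 684, 678 of 681, 783 of 784 and 294 of 297 bases, and mt-Nd3 one at 99.7% over 345 of 348. mt-Atp8 lies between mt-Co2 and mt-Atp6. The same block matched mt-Nd4 over 876 of 1378 bases and mt-Co1 over 483 of 1545. No other copy found passed 97.6% identity. None of these copies has a row in the count table, so how reads that fit both places were assigned, and whether some were dropped, is not given in the sources used here. Levels and changes of these 6 genes are uncertain for that reason. Reads from the matched parts of mt-Nd4 and mt-Co1 share this uncertainty.

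A pair of genes and their copies, from GENCODE's transcripts of the same build, show how such copies differ. The first 60 bases of mt-Co2 (chrM:7013-7072, plus strand) and of its copy Gm28661 (chr1:24615506-24615565, minus strand) have 0 mismatches, so reads lying wholly inside them fit both places. In a 60-base stretch of mt-Cytb (chrM:14146-14205, plus strand) and of its copy Gm11410 (chr4:80003990-80004049, plus strand), which is 92.9% identical over its length, 3 bases differ, given in capitals.
mt-Co2: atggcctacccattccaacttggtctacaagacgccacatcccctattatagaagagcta
Gm28661: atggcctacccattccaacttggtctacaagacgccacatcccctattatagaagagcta
mt-Cytb: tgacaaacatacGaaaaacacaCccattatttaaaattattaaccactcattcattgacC
Gm11410: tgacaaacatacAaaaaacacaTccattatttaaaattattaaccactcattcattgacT

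**Figure D3:**
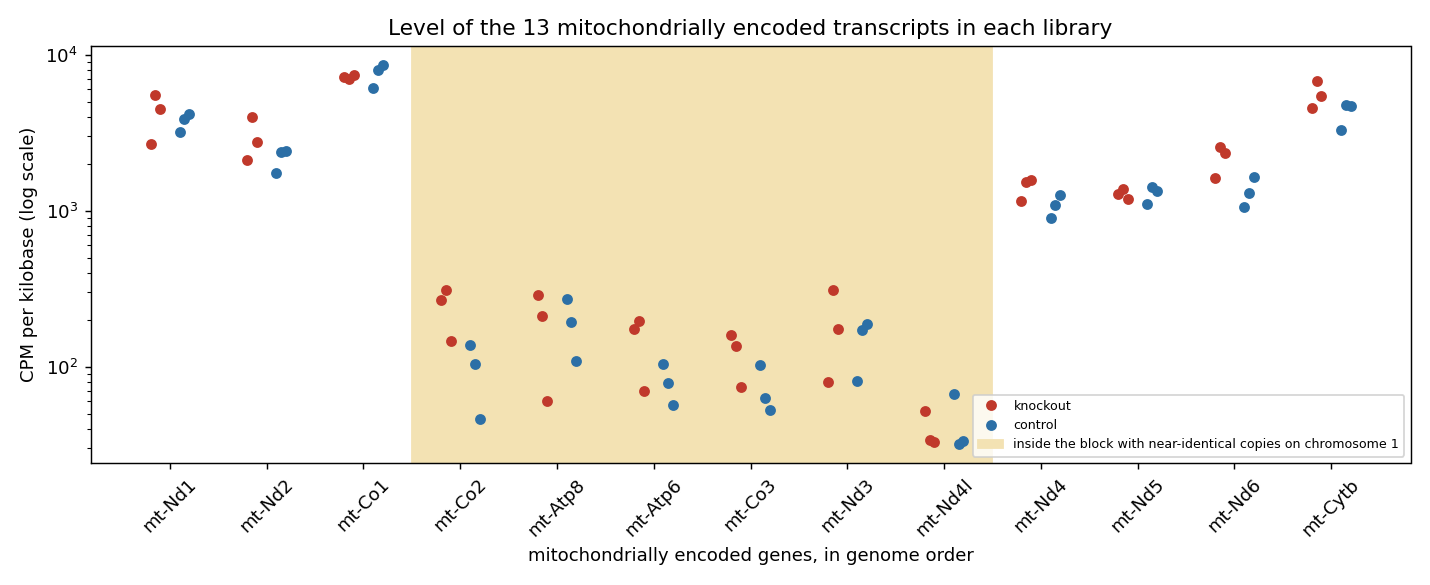
Level of each mitochondrially encoded gene in CPM per kilobase of transcript (log axis), in genome order, with 1 point per library for knockout and control; shading marks the 6 genes inside the block with near-identical copies on chromosome 1. The shaded genes average 39.6 to 240 CPM per kilobase in knockout and 44.0 to 190 in control, and the other 7 exceed 1000 in both group means.

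mt-Co2, a catalytic subunit of complex IV that receives electrons from cytochrome c, was the largest call among the mitochondrially encoded genes and lies in the uncertain stretch. It had 183, 210 and 99.4 CPM in knockout and 94.1, 70.8 and 31.4 in control. The groups were apart by a narrow margin, 99.4 against 94.1 (log2 fold change 1.33, SE 0.37, edgeR adjusted p = 0.0288). The call was lost after the offsets (1.13, adjusted p = 0.0785), without control library 2 (1.40, adjusted p = 0.0878) and without knockout library 2 (1.12, adjusted p = 0.107). The ratio of mt-Co1 to mt-Co2 per kilobase was 26.9, 22.6 and 50.7 in knockout and 44.4, 77.2 and 187 in control, so it spread from 44.4 to 187 among the control libraries and the groups overlapped.

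The other genes of that stretch were not called in the main test, and the calls of 2 of them depended on the setting. mt-Atp6, a proton channel subunit of complex V, had 119, 134 and 47.5 CPM in knockout and 70.3, 53.6 and 38.5 in control (0.89, edgeR adjusted p = 0.0822), and mt-Co3 of complex IV had 126, 106 and 58.1 CPM in knockout and 79.8, 49.3 and 41.0 in control (0.77, adjusted p = 0.0841). mt-Nd3 (0.35), mt-Atp8 (-0.03) and mt-Nd4l (-0.14) had adjusted p of 0.569, 0.967 and 0.755. In these 5 genes the groups overlapped. mt-Co3 was called in 6 alternatives, among them DESeq2 (adjusted p = 0.034), no filter on low counts (0.0055), the replicate block (0.00635) and without knockout library 3 (0.0384). mt-Atp6 was called in 4, with no filter (adjusted p = 0.00305), the replicate block (0.0099), that block with the offsets (0.0203) and without knockout library 3 (0.0184).

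Of the 7 genes without a full-length near-identical copy, mt-Nd6 was called. It encodes a membrane subunit of complex I and is the one messenger RNA read from the other strand. It had 842, 1337 and 1220.4 CPM in knockout and 545, 675 and 855 in control, so knockout library 1 lay within the control range (0.71, SE 0.21, edgeR adjusted p = 0.0348; 0.68 after the offsets, adjusted p = 0.0221). The call was lost with total counts alone (0.55, adjusted p = 0.075) and without control library 1, control library 2, knockout library 2 or knockout library 3 (adjusted p = 0.101, 0.127, 0.128 and 0.104). The strand setting of the counting is not given in the sources used here, so mt-Nd6 reads cannot be told apart from transcripts of the opposite strand at the same place.

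mt-Co1, the catalytic core of complex IV and the most abundant member, had 11124, 10741 and 11381 CPM in knockout and 9442, 12337 and 13290.1 in control. Those groups overlapped, with a log2 fold change of -0.08 (95% interval -0.42 to 0.27, edgeR adjusted p = 0.733). mt-Cytb, the mitochondrially encoded subunit of complex III, had 5197, 7749 and 6253 CPM in knockout and 3736, 5458 and 5342 in control (0.40, adjusted p = 0.149). mt-Nd2 (0.43), mt-Nd4 (0.39) and mt-Nd1 (0.17) also missed the threshold, with adjusted p of 0.182, 0.12 and 0.623, and mt-Nd5 had 2347, 2516 and 2169 CPM in knockout and 2014, 2589 and 2436 in control (adjusted p = 0.995). mt-Nd4 was called with the median coding length offsets (0.45, adjusted p = 0.0438), and without knockout library 1 it, mt-Cytb, mt-Nd2 and mt-Nd1 were called (adjusted p = 0.0148, 0.0223, 0.0139 and 0.0389).

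Summed levels, taken without the length and GC offsets, separated the groups for the nuclear members and not for the mitochondrially encoded ones. The 84 nuclear members together had 12842, 16179 and 13695 CPM in knockout and 10892, 10119.7 and 10363 in control, or 14239 ± 1733 CPM in knockout and 10459 ± 395 in control (SD, n = 3 each), a ratio of 1.36. These sums did not overlap. The 13 mitochondrially encoded members together had 26354, 34459 and 30643 CPM in knockout and 22180, 28998 and 30406 in control, a ratio of 1.12, and these overlapped. By nuclear complex the ratios of knockout to control were 1.51 for complex I, 1.23 for II, 1.32 for III, 1.53 for IV and 1.25 for V. In complex V the sum is weighted to its abundant head subunits, since Atp5a1 and Atp5b averaged 974 and 1066 of the 4317 CPM of the complex in control.

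The balance between the genomes did not separate the groups. Mitochondrially encoded over nuclear CPM was 2.05, 2.13 and 2.24 in knockout and 2.04, 2.87 and 2.93 in control, with control library 1 beside the knockout libraries. The 13 genes took 2.59%, 3.14% and 2.91% of all counts in knockout and 2.27%, 3.08% and 3.27% in control. No test of these ratios was run.

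**Figure D4:**
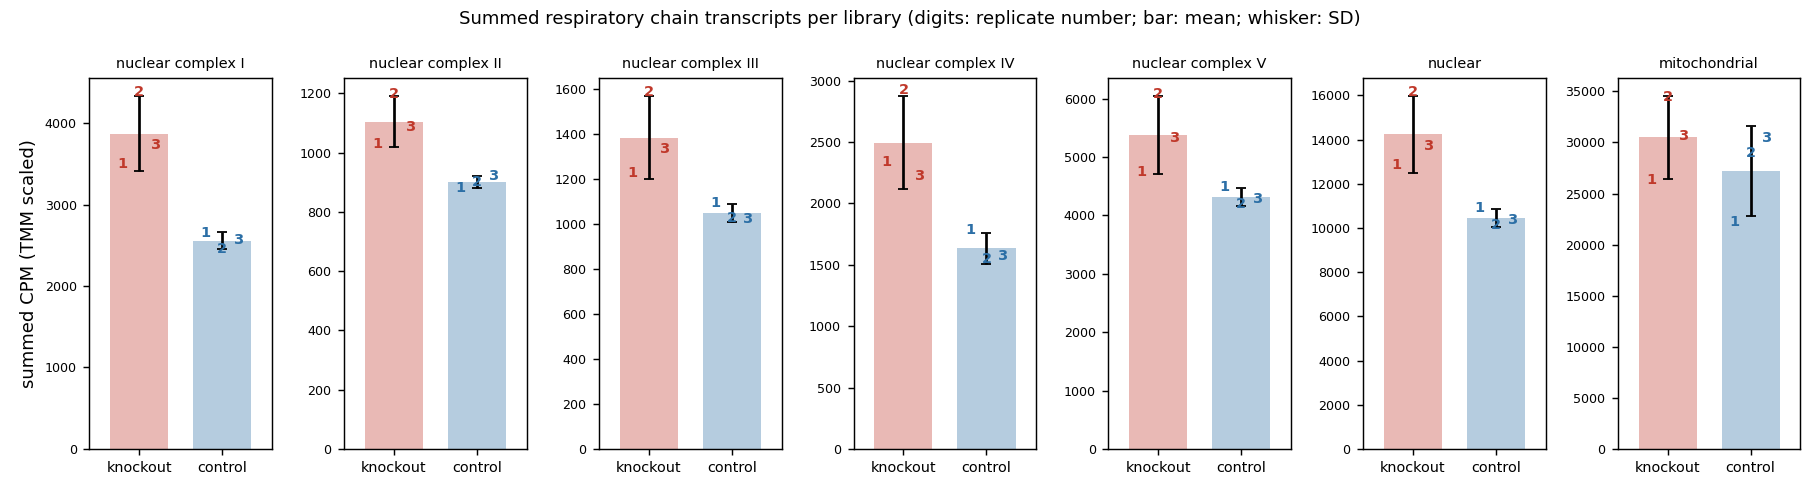
Summed CPM per library for the nuclear members, the mitochondrially encoded members and the nuclear members of each complex, each panel with its own axis from 0; digits are replicate numbers, bars means and whiskers SD. Knockout libraries lie above control libraries for the nuclear sum (12842 to 16179 against 10119.7 to 10892) and overlap with them for the mitochondrially encoded sum. The sums carry no length or GC offsets.

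Promoters of respiratory chain genes are known for sites of the transcription factors NRF1, GABP (an ETS factor) and YY1. RefSeq promoter windows of the GRCm38.p6 build, from 250 bases before to 50 after the start, matched 68 of the 84 nuclear members (73 windows). Both strands were searched. The NRF1 motif, spelled GCGCA, 1 free base and GCGC, was in 18 member windows (24.7%) and in 4.60% of all 32851 windows, and its strict form with T as the free base, whose matches are also matches of the wider one, in 6.85% and 0.971%. The ETS core CCGGAAG was in 23.3% of member windows and 8.86% of all, and the YY1 core AAGATGGCG in 9.59% and 1.40%. The share of genes called was no higher with the match. Of 17 tested genes with the NRF1 match 8 were higher (median log2 fold change 0.60), and of 48 without it 30 were (median 0.63). After the offsets 0 of the 17 and 9 of the 48 were higher, with medians of 0.21 and 0.31. No test of this difference was run.

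The windows of 3 genes, all on minus strands, show genes with the same number of matches and different values. Ndufb4, a complex I subunit named after its values were seen, and Sdha each hold 3 NRF1 matches. Ndufb4 was higher (28.8, 42.8 and 27.5 CPM in knockout, 18.8, 19.4 and 18.2 in control, log2 fold change 0.81, edgeR adjusted p = 0.0142) while Sdha was not called (0.05). After the offsets neither Ndufb4 nor Sdha was called. Atp5h, of the peripheral stalk, holds 1 NRF1 and 1 ETS match. The windows are chr16:37654319-37654618 for Ndufb4, chr13:74350191-74350490 for Sdha and chr11:115419870-115420169 for Atp5h, and capitals mark the matches.
Ndufb4: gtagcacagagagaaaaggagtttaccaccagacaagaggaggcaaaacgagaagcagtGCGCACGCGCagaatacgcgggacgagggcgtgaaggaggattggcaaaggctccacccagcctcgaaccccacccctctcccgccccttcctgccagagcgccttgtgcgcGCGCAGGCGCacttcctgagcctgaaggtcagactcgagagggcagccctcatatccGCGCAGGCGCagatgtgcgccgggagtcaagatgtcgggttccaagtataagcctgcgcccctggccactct
Sdha: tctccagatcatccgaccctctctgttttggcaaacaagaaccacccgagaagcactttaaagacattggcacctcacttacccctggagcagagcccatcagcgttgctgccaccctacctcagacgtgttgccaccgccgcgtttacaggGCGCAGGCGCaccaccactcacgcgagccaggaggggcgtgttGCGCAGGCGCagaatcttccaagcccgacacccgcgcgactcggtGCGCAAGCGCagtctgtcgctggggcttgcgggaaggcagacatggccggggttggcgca
Atp5h: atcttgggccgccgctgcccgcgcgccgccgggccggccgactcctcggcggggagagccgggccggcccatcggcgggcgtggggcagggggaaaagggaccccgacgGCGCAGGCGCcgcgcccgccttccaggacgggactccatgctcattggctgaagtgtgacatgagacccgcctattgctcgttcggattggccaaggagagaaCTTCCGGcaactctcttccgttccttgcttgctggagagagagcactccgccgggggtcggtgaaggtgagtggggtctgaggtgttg

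Transcripts of the factors themselves were not higher. Beside 11.8% of all genes higher and 13.5% lower, 0 of 11 tested regulators of respiratory genes were higher and 3 lower by edgeR. Their median was -0.16 (0 higher and 5 lower at an unadjusted p under 0.05, 0 and 4 by DESeq2). These are long transcripts, with a median of 5246 bases, and after the offsets their median was 0.01, against 0.06 for all genes, with 1 lower. Nrf1 had 55.3, 52.5 and 48.3 CPM in knockout and 58.8, 42.7 and 41.9 in control, and Gabpa 67.3, 84.4 and 69.3 CPM in knockout and 64.9, 68.3 and 73.6 in control, with overlapping groups. Ppargc1b, a coactivator of mitochondrial biogenesis, had 10.2, 6.45 and 6.77 CPM in knockout and 17.3, 14.6 and 12.9 in control and was lower (-0.94, SE 0.22, edgeR adjusted p = 0.0167; -0.77 after the offsets, adjusted p = 0.0244). Hcfc1 (-1.03) and Foxo3 (-0.55) were lower too, and neither was called after the offsets (adjusted p = 0.0501 and 0.963).

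Of 47 tested assembly factors, 13 were higher (27.7%, against 11.8% of all genes) and 0 lower by edgeR, with a median of 0.37. At an unadjusted p under 0.05, 21 were higher and 0 lower, and by DESeq2 15 and 0. After the offsets 4 were higher (8.51%, against 9.49% of all genes) and 1 lower, Ecsit of complex I assembly (-0.51, edgeR adjusted p = 0.0446), with a median of 0.17. The largest was Sdhaf4, which helps the flavoprotein and iron-sulfur subunits of complex II join. It had 11.9, 18.3 and 16.6 CPM in knockout and 5.91, 5.33 and 5.67 in control (1.47, SE 0.21, edgeR adjusted p = 0.00214; 1.15 after the offsets). Uqcc2 of complex III assembly (0.91), Cox16 of complex IV (0.83) and Ndufaf7 of complex I (0.73) were called before and after the offsets as well.

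Of 22 genes of electron carriers and ubiquinone synthesis 5 were higher (22.7%, against 11.8% of all genes), namely Coq3, Coq6, Coq10b, Etfdh and Dhodh. The 1 lower (13.5% of all genes) was the glycerol-3-phosphate dehydrogenase Gpd2 (101, 112 and 124 CPM in knockout, 160, 180 and 162 in control, -0.57, edgeR adjusted p = 0.0141). None of the 22 was called after the offsets. Cytochrome c itself, Cycs, was not called (0.34, adjusted p = 0.239). The list also holds Ndufab1 (0.35, edgeR adjusted p = 0.0982) and Cyc1 (0.17, adjusted p = 0.377), the subunits named above as outside the symbol rule. Neither was called, and after the offsets their log2 fold changes were 0.40 and -0.07. The citrate cycle list also held pyruvate dehydrogenase (Pdha1, Pdhb and Dlat) and pyruvate carboxylase (Pcx) genes, none of them called. Of its 18 genes 4 were higher (22.2%, against 11.8% of all genes), namely Fh1, Suclg2, Suclg1 and Mdh2, from 0.46 to 0.60. Ogdh was lower (-0.46), and the median was 0.20. After the offsets Fh1 (0.56) and Suclg2 (0.53) were higher, 11.1% of the list against 9.49% of all genes, and Suclg1, Mdh2 and Ogdh lost their calls (edgeR adjusted p = 0.18, 0.149 and 0.126).

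Genes that express the mitochondrial genome included 6 of 26 that were higher (23.1%, against 11.8% of all genes) and 0 lower. Trmt10c, a subunit of the RNase P that cuts mitochondrial precursors, had 67.7, 96.4 and 78.6 CPM in knockout and 46.3, 42.2 and 47.6 in control (0.84, SE 0.15, edgeR adjusted p = 0.00693). After the offsets 7 were higher (26.9%, against 9.49% of all genes), among them Trmt10c, Fastkd2 (0.80) and Lrpprc (0.67), which stabilise or process mitochondrial RNA, and Tfam, which packages the mitochondrial genome (0.51, adjusted p = 0.0546 before the offsets and 0.64, 0.0271 after).

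Ribosomal protein genes, other families of short nuclear transcripts, were higher as well. Mitochondrial ribosomal protein genes had 46 of 77 higher (59.7%), 0 lower and a median of 0.52. Cytosolic ribosomal protein genes, which have no part in respiration, had 57 of 79 higher (72.2%), 0 lower and a median of 0.68. Over all genes 11.8% were higher and 13.5% lower. After the offsets 22 of the 77 (28.6%) and 24 of the 79 (30.4%) were higher and 2 of the 77 and 0 of the 79 lower, with medians of 0.34 and 0.36, against 11 of 78 (14.1%) and 0.27 for the nuclear respiratory chain genes. Whether the lists differ from each other was not tested.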

How the data were processed

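RNA-seq libraries of PD-L1 knockout and control DC2.4 cells (3 each) were analysed. Per the labels' protocols, TRIzol RNA was used with a KAPA Hyper Prep kit; per the submitters' processing notes, the tools were Trimmomatic 0.39, STAR 2.7.5c and StringTie 2.1.7, with build mm10. The deposited table holds unscaled read counts for each gene. Its counting step, annotation release and strand setting: not given in the sources used here.

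Genes were filtered with filterByExpr, which left 11453, scaled by TMM, and tested with edgeR's quasi-likelihood test (edgeR 4.0.16, limma 3.58.1, R 4.3.3), two-sided, with Benjamini-Hochberg adjustment over all genes and a threshold of 0.05. SE is the standard error of a log2 fold change. Length and GC content came from the principal transcript of each gene in GENCODE M21 (99.5% of tested genes), and offsets removed each library's loess trend (span 0.3). Transcripts were compared with blastn 2.17.0. A near-identical copy had at least 98% identity over 80% of a transcript.

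Named genes are all mitochondrially encoded members, per complex up to 6 nuclear members called, ranked by adjusted p, whose groups do not overlap, fixed catalytic or structural subunits, isoform pairs, and every member called lower; 1 selected gene is not reported here. The members and lists were chosen with earlier results of these data known. Cytosolic ribosomal genes exclude the S6 kinases and binding proteins. Alternatives were other scaling factors, filters, DESeq2 1.42.0, limma-voom, a replicate block, and leaving out each library. No libraries of a group agreed within sampling noise (chi-square per degree of freedom 16.3 to 54.0), so each counted as 1. The steps were tested on simulated counts.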

Additional observations from a re-analysis of the deposited data

How the results depend on the processing

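No named member reversed its direction past the threshold under any alternative. For nuclear members higher (45), lower (0) and mitochondrially encoded members higher (2), total counts alone gave 28, 1 and 1, the length and GC offsets 11, 1 and 1, those offsets with the replicate block 15, 1 and 4, and those with the median coding length 23, 1 and 2. The mitochondrially encoded count was also 4 with no filter on low counts and 4 with the replicate block. By complex, from I to V (22, 2, 2, 9 and 10), the offsets gave 7, 1, 1, 1 and 1, with the replicate block 10, 1, 1, 1 and 2, and with the median coding length 13, 1, 1, 3 and 5; total counts alone gave 1, 1, 4 and 4 for II to V. The counts by complex after the offsets alone were 19.4%, 25.0%, 12.5%, 7.69% and 5.88% of the tested members, against 9.49% of all genes. Complex III had 4 with no filter, with DESeq2's Wald test and with the replicate block. The nuclear median of 0.60 was 0.27 after the offsets, 0.27 with the block added and 0.39 with the median coding length. The mitochondrially encoded median of 0.39 was 0.34, 0.28 and 0.38 in the same 3 fits. The cause of these shifts was not tested, beyond what the offsets remove by construction.

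Leaving out 1 library moved the nuclear count between 6 and 62, the mitochondrially encoded count between 0 and 6, complexes I to V between 4 and 30, 0 and 3, 1 and 6, 1 and 11, and 0 and 12, and the medians between 0.45 and 0.66 (nuclear) and 0.16 and 0.53 (mitochondrially encoded). Whether same-numbered libraries pair was not settled. Correlations of their deviations were 0.154, -0.0644 and 0.358, and those of the other pairs lay between -0.324 and 0.141. With the replicate block 53 nuclear members were higher, beside 12.9% of all genes. Total-count scaling moved the median of all genes to -0.14. At 3 libraries per group and a biological coefficient of variation of 17.5%, changes of low genes such as Cox7a1 and Cox6a2 were not resolved.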
